A study of Macaca fascicularis with 36 samples.

Results

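The genes ENSMFAG00000039337, ENSMFAG00000002690 and ENSMFAG00000041509, known here only by these Ensembl-type identifiers, were followed in bulk RNA of the frontal cortex from 12 cynomolgus monkeys (Macaca fascicularis). They are 3 of the 28623 genes in the deposited count tables. The genes were chosen by their measured levels: each was 1.7- to 2-fold higher in animals given the higher antibody dose than in control animals, with a smaller difference at the lower dose. Differences between the treatment groups are therefore given as a description, with no test. Tests were kept to what that choice, as stated, did not use. That is the variation among animals of the same group and among libraries of the same animal.

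Para09 is described in the labels as an agonist antibody to human TREM2, and anti-gD as its isotype control. Each monkey was injected intrathecally with Para09 at 50 mg/kg, Para09 at 200 mg/kg or anti-gD at 200 mg/kg, and tissue was taken on day 2. Each group held 4 animals, numbered 1501 to 1504 for anti-gD, 4501 to 4504 for 50 mg/kg and 5501 to 5504 for 200 mg/kg. The labels do not say how a dose per kg applies to an injection into the spinal fluid, and no age is used here. Every animal gave 3 libraries, lettered A, B and C, and the labels do not explain the letters, so animals and not libraries were treated as replicates.

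TREM2 is a cell-surface receptor that in the brain is carried mainly by microglia, the resident phagocytes of the tissue. It recognises lipids and lipoproteins, and it signals through the adaptor TYROBP to the kinase SYK. Agonist antibodies bind the receptor and set off that signal. The identifiers of the 3 genes are paired with no symbol in the files, and 0 of the 40596 genes of the RefSeq reference table carry an Ensembl identifier, so none could be matched and the products of the 3 genes, their place in the genome, their sequences and their relation to TREM2 were not analysed here. For the same reason the labelled tissue was not checked against cell type markers.

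Library totals ran from 15.1 to 37.0 M counts (median 22.4 M), and the sum over an animal's libraries from 54.7 to 80.3 M. Library B of animal 5501 stood apart, with 15779 genes detected against 17974 to 19677 in the others. The sample identifiers fall in 2 runs of numbers: the first run holds 16 libraries, namely the B library of every animal and the A and C libraries of animals 1504 and 5501, and the second run holds the other 20. Of the first run, 6 libraries came from anti-gD animals, 6 from those at 200 mg/kg and 4 from those at 50 mg/kg. The labels do not say what the runs stand for.

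ENSMFAG00000039337 was the most abundant of the 3. Its mean over animals was 85.01 CPM (counts scaled by the library total), against 37.9 for ENSMFAG00000041509 and 10.2 for ENSMFAG00000002690. Per length the other two lay closer together. The deposited RPKM is divided by the exonic length in kilobases and scaled by a larger total than CPM. Mean RPKM was 19.1 for ENSMFAG00000039337 (exonic width 2609 bases), 5.14 for ENSMFAG00000041509 (4325 bases) and 3.59 for ENSMFAG00000002690 (1664 bases). A library held 814 to 3538 counts of ENSMFAG00000039337, 370 to 2033 of ENSMFAG00000041509 and 116 to 482 of ENSMFAG00000002690. The relative counting error of a single library was accordingly at most 3.5% for the first, 5.2% for the second and 9.29% for the third, and it covers counting error only.

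For ENSMFAG00000039337, the anti-gD animals 1501, 1502, 1503 and 1504 had 39.0, 81.0, 67.9 and 71.2 CPM. At 50 mg/kg, animals 4501, 4502, 4503 and 4504 had 74.7, 65.6, 64.9 and 76.0 CPM. At 200 mg/kg, animals 5501, 5502, 5503 and 5504 had 123.1, 125.4, 121.1 and 110.4 CPM. All animals at 200 mg/kg lay above every other animal, whereas the animals at 50 mg/kg lay within the range of the controls. Animal 1501 was the lowest of all, and most of the spread of the control group came from it and from animal 1502. The group means were 64.8 ± 18.1 CPM for anti-gD, 70.3 ± 5.85 at 50 mg/kg and 120.0 ± 6.64 at 200 mg/kg (SD, n = 4 each). In bulk tissue, a change in the number of cells that hold an RNA and a change in the RNA per cell cannot be told apart.

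For ENSMFAG00000002690, the same anti-gD animals had 9.33, 7.27, 7.68 and 6.74 CPM. The animals at 50 mg/kg had 8.99, 8.13, 9.78 and 7.94 CPM. Those at 200 mg/kg had 19.8, 11.3, 13.9 and 11.5 CPM. The group at 200 mg/kg again lay wholly above both others, but unevenly, with animal 5501 far above its 3 companions. At 50 mg/kg, 1 of 4 animals passed the highest control. The means were 7.76 ± 1.12, 8.71 ± 0.849 and 14.1 ± 3.98 CPM (SD, n = 4 each).

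For ENSMFAG00000041509, the anti-gD animals had 29.8, 27.1, 27.7 and 25.6 CPM. The animals at 50 mg/kg had 32.1, 31.8, 43.4 and 25.7 CPM. Those at 200 mg/kg had 74.0, 38.6, 51.9 and 46.7 CPM. All 4 animals at 200 mg/kg lay above the controls, but animal 4503 at 50 mg/kg was higher than animal 5502 at 200 mg/kg, so the 2 dose groups overlapped for this gene alone. Of the animals at 50 mg/kg, 3 exceeded the highest control. The means were 27.5 ± 1.73, 33.3 ± 7.37 and 52.8 ± 15.2 CPM (SD, n = 4 each).

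**Figure D1:**
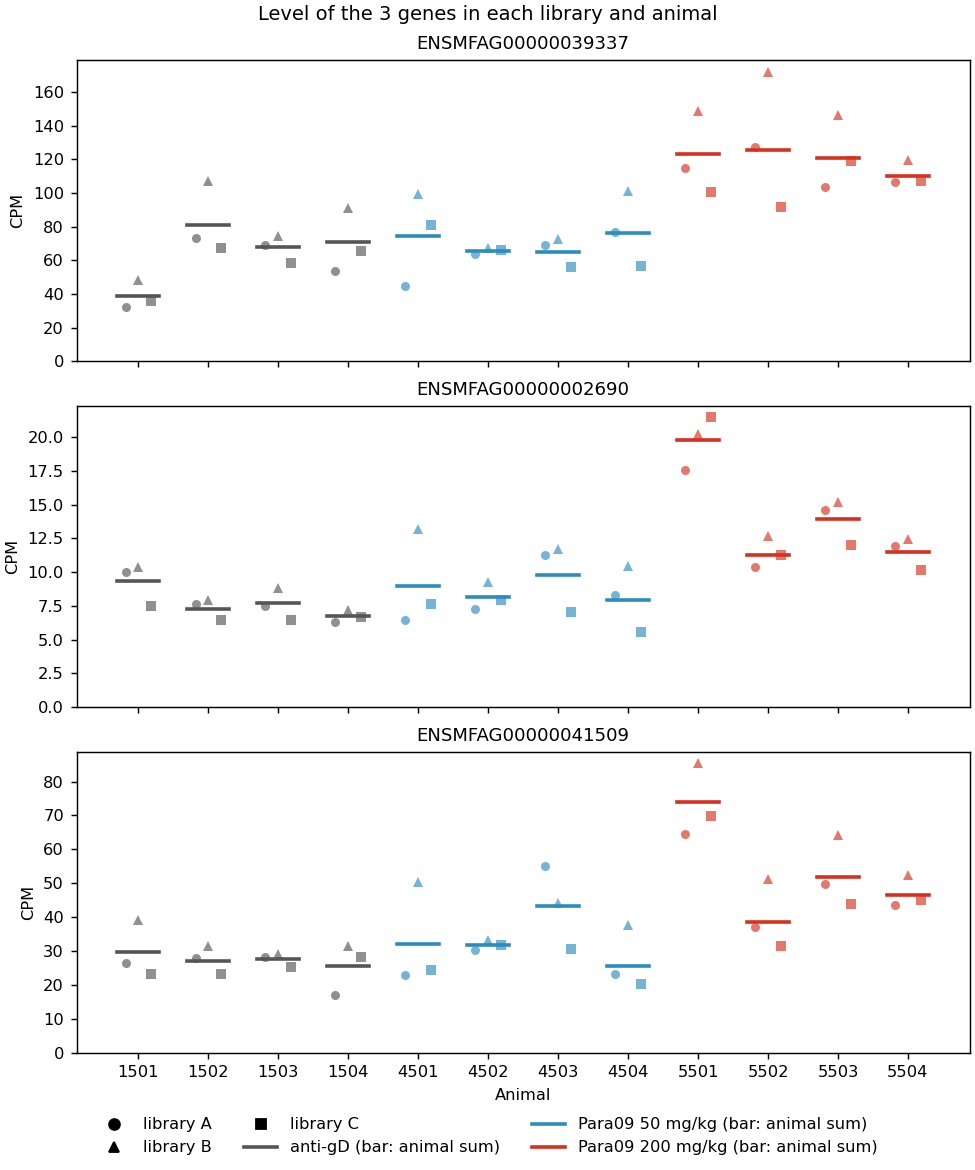
CPM of each gene (vertical axes) in every library (circles, letter A; triangles, B; squares, C) and in the sum of each animal's libraries (horizontal bars), for the 12 animals along the horizontal axis, coloured by group. The bars of the 4 animals at 200 mg/kg lie above those of all 4 anti-gD animals for each gene, while single libraries overlap.

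The spread among animals did not sit in the same group for the 3 genes. For ENSMFAG00000039337 the coefficient of variation over animals was 27.9% with anti-gD, 8.32% at 50 mg/kg and 5.54% at 200 mg/kg. ENSMFAG00000041509 had the opposite order, with 6.27%, 22.1% and 28.7%. For ENSMFAG00000002690 it was 14.4%, 9.74% and 28.2%. With 4 animals a group these differences in spread were not tested.

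Single libraries overlapped more than animals did. For ENSMFAG00000039337 the 12 anti-gD libraries ran from 32.5 to 107.0 CPM with a median of 66.3, and the 12 libraries at 200 mg/kg from 91.5 to 172.1 with a median of 117.1. Of the libraries at 200 mg/kg, 8 of 12 lay above the highest anti-gD library for ENSMFAG00000039337, 11 of 12 for ENSMFAG00000002690 and 10 of 12 for ENSMFAG00000041509. At 50 mg/kg, 0, 4 and 3 of 12 libraries did so. For ENSMFAG00000002690 the anti-gD libraries ran from 6.33 to 10.4 CPM (median 7.48), those at 50 mg/kg from 5.54 to 13.2 (median 8.13) and those at 200 mg/kg from 10.2 to 21.5 (median 12.6). For ENSMFAG00000041509 the ranges were 17.0 to 39.2 CPM (median 28.0), 20.3 to 55.1 (median 31.3) and 31.6 to 85.4 (median 50.5).

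On the log2 scale of the edgeR fit over animals, the difference between 200 mg/kg and anti-gD was 0.89 (SE 0.177) for ENSMFAG00000039337, 0.86 (SE 0.183) for ENSMFAG00000002690 and 0.94 (SE 0.194) for ENSMFAG00000041509. These are 1.85-, 1.82- and 1.91-fold. The differences at 50 mg/kg were 0.13 (SE 0.176), 0.18 (SE 0.182) and 0.29 (SE 0.193), smaller by the choice of the genes. The 2 comparisons share the anti-gD animals. Between the 2 doses the differences were 0.76 (SE 0.177), 0.68 (SE 0.182) and 0.65 (SE 0.193).

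Over all genes, edgeR's quasi-likelihood test with Benjamini-Hochberg adjustment called 0 of 17360 genes (0.0%) between 200 mg/kg and anti-gD, the 3 genes included, and 691 genes had an unadjusted p under 0.05. DESeq2 called 14 of 17356 genes (0.0807%) and limma voom on libraries with the animal as a random block called 20 of 15928 (0.126%), and all 3 genes were among the calls of both. Because the genes were chosen by this contrast, nothing is read from those calls. A total of 236 genes (1.36%) had all 4 animals at 200 mg/kg above all 4 anti-gD animals, and 10 genes (0.0576%) had this within each of the letters A, B and C, the 3 genes among them. With 4 animals a group such separation also arises without any treatment effect. The number of genes to be had that way was not computed, so nothing is read from these counts either.

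Of the 17360 genes, 97 had a fold of 1.7 to 2 at 200 mg/kg with a smaller fold above 1 at 50 mg/kg. A minimum mean of 1 CPM left 36 of these, animals that did not overlap left 16, and no overlap within each letter left 3, which are the 3 genes described. The overlap steps use the same contrast that chose the genes, so this narrowing is a description and sets the 3 genes apart by no independent measure. Whether the choice itself used such steps is not stated. Within that range they spanned 1.82- to 1.91-fold. Among genes with the same CPM minimum, no overlap and a fold above 1 at 50 mg/kg, the nearest gene under the lower bound had 1.68-fold and the nearest above the upper bound 2.04-fold.

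The fold at 200 mg/kg is given by letter as a description. The letters are parts of the same animals' sums on which the genes were chosen, so they do not repeat the comparison independently. For ENSMFAG00000039337 the ratio of mean CPM to anti-gD was 1.98 in the A libraries, 1.83 in B and 1.84 in C. For ENSMFAG00000002690 it was 1.73, 1.77 and 2.03, and for ENSMFAG00000041509 1.96, 1.93 and 1.90. At 50 mg/kg the ratios were 1.11, 1.06 and 1.15 for ENSMFAG00000039337, 1.06, 1.30 and 1.04 for ENSMFAG00000002690 and 1.33, 1.26 and 1.07 for ENSMFAG00000041509. No letter separated the animals at 50 mg/kg from the controls for any of the 3 genes.

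The size of each of the 3 differences moved when a single animal was left out. Without animal 5501 the log2 difference at 200 mg/kg was 0.66 (SE 0.147) for ENSMFAG00000002690 and 0.74 (SE 0.166) for ENSMFAG00000041509. Animal 5501 is, with control animal 1504, one whose libraries are all in the first run. Without anti-gD animal 1501 the difference for ENSMFAG00000039337 was 0.70 (SE 0.103) at 200 mg/kg, and at 50 mg/kg it changed sign, to -0.05 (SE 0.101). Without animal 4503 the difference at 50 mg/kg for ENSMFAG00000041509 was 0.13 (SE 0.182). Within the second run, which holds neither 1504 nor 5501, the differences at 200 mg/kg were 0.93, 0.60 and 0.68 for ENSMFAG00000039337, ENSMFAG00000002690 and ENSMFAG00000041509, and within the B libraries, all of the first run, 0.87, 0.83 and 0.95. Without library B of animal 5501 they were 0.84, 0.85 and 0.88.

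**Figure D2:**
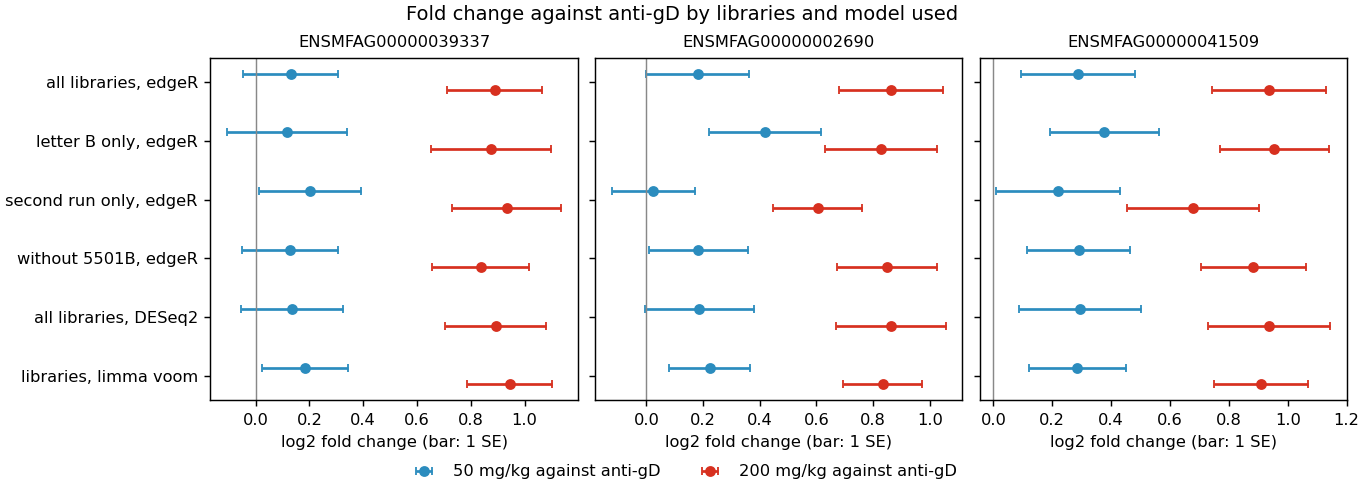
Log2 fold change against anti-gD (horizontal axes, bars of 1 SE) for each gene and dose, by the libraries and model used (vertical axis). The estimates for 200 mg/kg lie between 0.60 and 0.95, and those for 50 mg/kg lie closer to 0.

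Whether the genes follow each other was tested on what the choice of genes, as stated, left unused. That is the deviation of each animal from its group mean of TMM-scaled log2 CPM. ENSMFAG00000002690 and ENSMFAG00000041509 deviated together, with r = 0.874 over 12 animals (exact two-sided permutation within groups, p = 0.000217, adjusted over the 3 pairs 0.000651) and Spearman's rho of 0.874 (exact permutation p = 0.000651, adjusted 0.00195). For ENSMFAG00000039337 neither correlation passed the test, and both were below 0: r was -0.387 with ENSMFAG00000002690 (exact permutation p = 0.169, adjusted 0.169) and -0.232 with ENSMFAG00000041509 (exact permutation p = 0.119, adjusted 0.169). The matching values of rho were -0.301 (exact permutation p = 0.304) and -0.280 (exact permutation p = 0.324).

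By CPM, ENSMFAG00000002690 and ENSMFAG00000041509 also ranked the animals alike. Among controls both ran 1501, 1503, 1502, 1504 from high to low, at 50 mg/kg 4503, 4501, 4502, 4504, and at 200 mg/kg 5501, 5503, 5504, 5502. By this measure all 18 of 18 pairs of animals within groups were in the same order, against 14 of 18 in the B libraries alone and 9 of 12 in the second run. Some places were close, such as 4501 and 4502 with 32.1 and 31.8 CPM of ENSMFAG00000041509. In the TMM-scaled deviations these animals changed places for that gene (-0.0400 and -0.0338) but not for ENSMFAG00000002690 (0.0354 and -0.0879). By CPM, ENSMFAG00000039337 shared the order of 5 of 18 pairs with each of the others. Its controls ran 1502, 1504, 1503, 1501, so that animal 1501 was the lowest control for this gene and the highest for the other two.

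**Figure D3:**
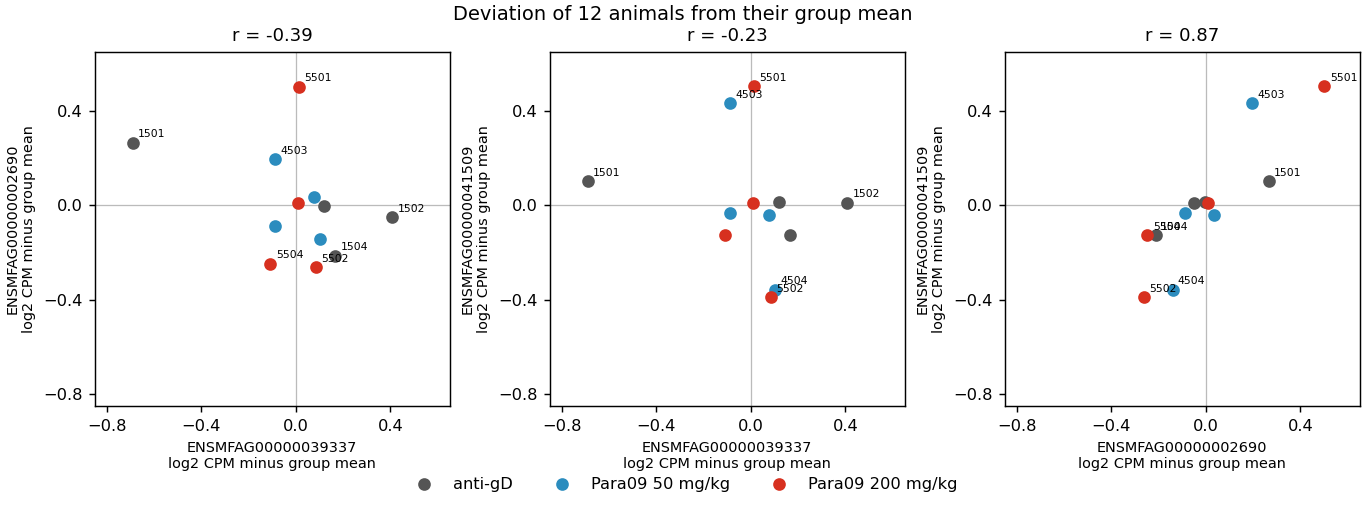
TMM-scaled log2 CPM of each animal minus its group mean for the 3 pairs of genes, 1 point per animal, coloured by group, with animals away from the origin named and r above each panel. Points for ENSMFAG00000002690 and ENSMFAG00000041509 run along the diagonal (r = 0.87), with 5501 at the top, and those of the pairs with ENSMFAG00000039337 do not.

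Leaving out the 2 animals farthest from the median deviation of ENSMFAG00000002690, 1501 and 5501, gave r = 0.849 with ENSMFAG00000041509 (exact permutation p = 0.00347, adjusted 0.0104). Leaving out 1501 and 1502 gave r = -0.0993 (exact permutation p = 0.811) for ENSMFAG00000039337 with ENSMFAG00000002690 and -0.463 (exact permutation p = 0.281) with ENSMFAG00000041509. The r of the first pair thus stayed high without the 2 animals extreme for ENSMFAG00000002690. Animals 4503, 4504 and 5502, far out for ENSMFAG00000041509 (0.431, -0.357 and -0.388), stayed in. Leaving them out singly gave r of 0.898, 0.897 and 0.850, and they were not left out together. The r of ENSMFAG00000039337 with ENSMFAG00000002690 was close to 0 without 1501 and 1502. In the B libraries alone r between ENSMFAG00000002690 and ENSMFAG00000041509 was 0.919 (exact permutation p = 0.00145, adjusted 0.00434). In the second run, with 10 animals, it was 0.701 (exact permutation p = 0.0405, adjusted 0.122) and missed the threshold after adjustment. With run and letter effects subtracted it was 0.845 (exact permutation, adjusted p = 0.00109). Leaving out library B of animal 5501 kept it at 0.846 and moved the pairs with ENSMFAG00000039337 past the threshold in the negative direction, to -0.538 (exact permutation, adjusted p = 0.0301) with ENSMFAG00000002690 and -0.352 (exact permutation, adjusted p = 0.0242) with ENSMFAG00000041509.

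The ratios between the genes are given as a description, since the choice of genes with like folds limits how far a ratio can differ between groups. Per kilobase of exon, ENSMFAG00000041509 stood at 1.23 (animal 1501) to 1.71 (animal 4503) times ENSMFAG00000002690, with a median of 1.44, a 1.39-fold range. The ratio of ENSMFAG00000039337 to ENSMFAG00000002690 per kilobase ran from 2.67 in animal 1501 to 7.11 in animal 1502, both controls, and that to ENSMFAG00000041509 from 2.17 in 1501 to 5.38 in 5502.

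Among the 14644 other genes whose mean reached 1 CPM, ranked by r of the same deviations, ENSMFAG00000041509 was at rank 8 for ENSMFAG00000002690, and ENSMFAG00000002690 at rank 6 for ENSMFAG00000041509. In the B libraries these ranks were 2 and 1, and in the second run 480 and 875. They were 5 and 14 without library B of animal 5501, and 20 and 54 with run and letter effects subtracted. For ENSMFAG00000039337 the other two stood at ranks 11956 (ENSMFAG00000002690) and 10220 (ENSMFAG00000041509). The places of ENSMFAG00000002690 and ENSMFAG00000041509 fell furthest in the second run, which lacks 2 animals and every B library.

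The gene most like each of the 3 in these deviations, over 12 animals, was named whatever its level in the groups. For ENSMFAG00000039337 it was ENSMFAG00000038019 (r = 0.978, and 0.893 in the B libraries and 0.938 in the second run), with means of 28.3 ± 6.10, 24.8 ± 0.874 and 28.2 ± 1.00 CPM for anti-gD, 50 and 200 mg/kg (SD, n = 4 each). For ENSMFAG00000002690 it was ENSMFAG00000038529 (r = 0.918, and 0.691 and 0.696), a gene with 1.43 ± 0.159, 1.32 ± 0.122 and 1.36 ± 0.503 CPM. For ENSMFAG00000041509 it was ENSMFAG00000045807 (r = 0.919), with 15.3 ± 0.704, 13.2 ± 3.83 and 13.2 ± 3.45 CPM. The last likeness was -0.130 in the B libraries and 0.836 in the second run. These r are the highest of many and are given as a description, with no p.

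Animals of the same group differed by more than libraries of 1 animal for all 3 genes when animal, letter and run were fitted over the 36 libraries. The adjusted p of edgeR's quasi-likelihood F test was 0.0110 for ENSMFAG00000039337, 0.0220 for ENSMFAG00000002690 and 0.0232 for ENSMFAG00000041509, against 3649 of 15928 genes (22.9%) called, or 1892 without animal 1501, 2109 without 1502 and 5663 without 1504. A call by this test was therefore common among genes. Within the second run alone 0 of 3 passed by edgeR (adjusted p 0.288, 0.617 and 0.0613), where 528 genes (3.27%) were called. The call for ENSMFAG00000039337 was lost by edgeR without control animal 1501 (adjusted p = 0.717) or 1502 (adjusted p = 0.0751). That for ENSMFAG00000002690 was lost by edgeR without 1501 (adjusted p = 0.0719), 1504 (adjusted p = 0.166) or 5501 (adjusted p = 0.141). That for ENSMFAG00000041509 was lost by edgeR without 4503 (adjusted p = 0.0832), 4504 (adjusted p = 0.0544), 5501 (adjusted p = 0.0817) or 5502 (adjusted p = 0.0669).

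The within-group SD of TMM-scaled log2 CPM over animals was 0.286 for ENSMFAG00000039337, 0.251 for ENSMFAG00000002690 and 0.291 for ENSMFAG00000041509. The 1000 genes nearest in level had medians of 0.191, 0.265 and 0.210, and 78.8%, 47.4% and 73.6% of them had a smaller SD. ENSMFAG00000002690 thus varied among animals about as much as other genes of its level.

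Libraries of 1 animal also differed from each other. The highest library of an animal stood at 1.06 (animal 4502) to 2.23 times (4501) the lowest for ENSMFAG00000039337, with a median of 1.48. The range was 1.13 (1504) to 2.04 (4501), median 1.27, for ENSMFAG00000002690 and 1.10 (4502) to 2.20 (4501), median 1.54, for ENSMFAG00000041509. Animal 4501 had the widest gap for all 3 genes.

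Within animals the B library was most often the highest. By CPM it was the highest of the 3 in 12 of 12 animals for ENSMFAG00000039337, and in 11 of 12 for ENSMFAG00000002690 (library C in 5501) and for ENSMFAG00000041509 (library A in 4503). Over all genes 531 of 17360 (3.06%) had this in at least 11 animals. After TMM scaling, the log2 difference between B and the mean of A and C was 0.39 ± 0.24 for ENSMFAG00000039337 (higher in 11 of 12 animals), 0.26 ± 0.22 for ENSMFAG00000002690 (12 of 12) and 0.39 ± 0.30 for ENSMFAG00000041509 (12 of 12; SD over animals).

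In 10 animals the B library is also the only one in the first run, so letter B and the run cannot be told apart there. In those animals the second run was lower than the first by log2 differences of -0.39 (SE 0.0848, edgeR adjusted p = 0.000449) for ENSMFAG00000039337, -0.33 (SE 0.0881, edgeR adjusted p = 0.00277) for ENSMFAG00000002690 and -0.43 (SE 0.0893, edgeR adjusted p = 0.000302) for ENSMFAG00000041509. Of 16046 genes 4683 (29.2%) were called in that direction, so the 3 genes moved with a broad difference between these libraries. The split of run from letter rests on animals 1504 and 5501, whose libraries are all in the first run. With both terms in the model the run difference was 0.10 (SE 0.213, edgeR adjusted p = 0.833), -0.29 (SE 0.203, edgeR adjusted p = 0.473) and -0.07 (SE 0.231, edgeR adjusted p = 0.8996), where edgeR called 287 genes (1.8%), or 986 without animal 1504 and 440 without 5501.

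In the same model the difference between B and the mean of A and C was 0.53 (SE 0.192, edgeR adjusted p = 0.397) for ENSMFAG00000039337, 0.08 (SE 0.183, edgeR adjusted p = 0.897) for ENSMFAG00000002690 and 0.41 (SE 0.207, edgeR adjusted p = 0.493) for ENSMFAG00000041509, where 1 gene (0.00628%) was called, or 1791 without animal 1504 and 0 without 5501. In animal 1504, B lay 0.64, 0.16 and 0.55 above the mean of A and C on the log2 scale for the 3 genes in that order, and in animal 5501 0.49, 0.08 and 0.37. In both animals the B library was thus above the mean of the others within a single run. It was not above each of the others for ENSMFAG00000002690 in animal 5501, where by CPM library C (21.53) exceeded B (20.25). Library B of 5501 is also the library with the fewest genes detected. Neither the run nor the letter passed the test for any of the 3 genes once both were fitted.

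Letters A and C share a run in every animal. Their difference was 0.03 (SE 0.0926, edgeR adjusted p = 0.880) for ENSMFAG00000039337, 0.16 (SE 0.0875, edgeR adjusted p = 0.491) for ENSMFAG00000002690 and 0.10 (SE 0.100, edgeR adjusted p = 0.625) for ENSMFAG00000041509. edgeR called 0 of 15928 genes (0.0%), with 1617 at an unadjusted p under 0.05, and DESeq2 called 0 with 1843. Library A was above C in 6, 7 and 7 of 12 animals.

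**Figure D4:**
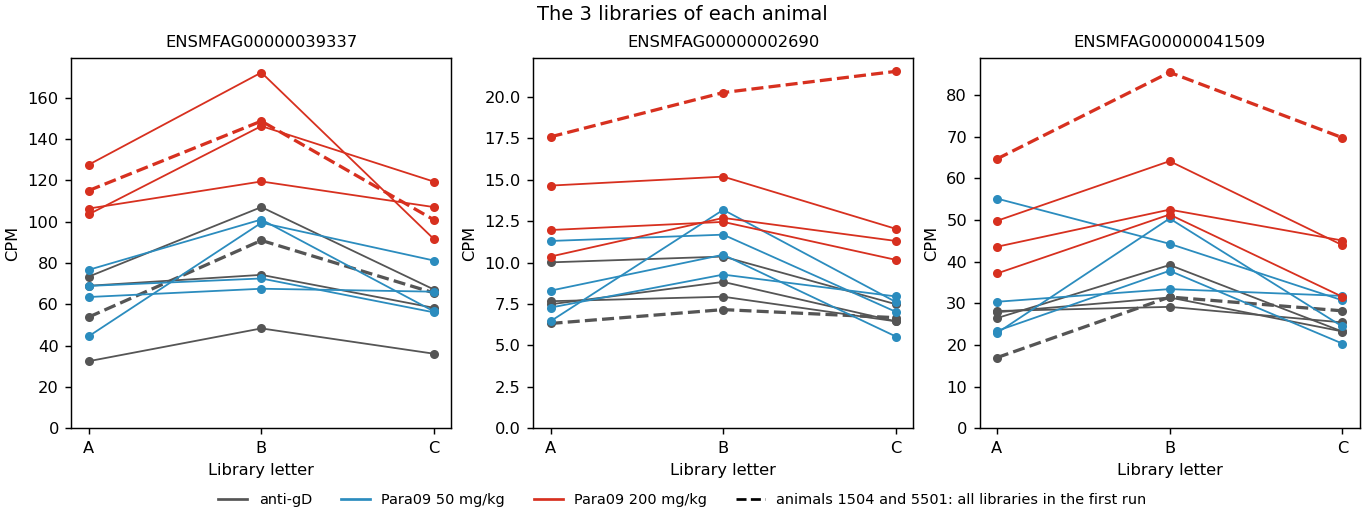
CPM of each gene (vertical axes) in the libraries A, B and C (horizontal axes), with a line per animal, coloured by group and dashed for animals 1504 and 5501, whose libraries are all in the first run. Library B is the highest in 12, 11 and 11 of 12 animals for ENSMFAG00000039337, ENSMFAG00000002690 and ENSMFAG00000041509.

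Across the 36 libraries, after subtracting animal, letter and run effects, all 3 pairs of genes were positively related. The r was 0.379 for ENSMFAG00000039337 with ENSMFAG00000002690, 0.588 for ENSMFAG00000039337 with ENSMFAG00000041509 and 0.637 for ENSMFAG00000002690 with ENSMFAG00000041509. With animal effects alone subtracted they were 0.606, 0.792 and 0.776, which still include the broad difference of the B libraries from the others. The r of other genes over libraries was not computed, so whether these values are particular to the 3 genes was not tested. These values are a description with no p, since libraries of an animal share their source. Among animals of a group the r of ENSMFAG00000039337 with the other two was below 0 and did not pass the test. Without library B of animal 5501 both values passed it. They were -0.538 with ENSMFAG00000002690 (exact permutation, adjusted p = 0.0301) and -0.352 with ENSMFAG00000041509 (exact permutation, adjusted p = 0.0242). In the second run the r with ENSMFAG00000041509 turned to 0.0192.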

How the data were processed

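Bulk RNA of frontal cortex was measured in 36 libraries of 12 animals. The deposited tables give, per the file headers, for each gene and library the reads counted as whole numbers, the width of its exons in bases (which enters no test) and an RPKM value. The aligner GSNAP appears, with no version, in the submitters' processing notes. No source used here gives the build, annotation, strand setting or handling of multiply matching reads, so counts of overlapping or near-identical genes are uncertain. Deposited counts made up 52.9 to 63.0% of the total behind the deposited RPKM values. RPKM served only to compare levels per length.

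Counts were summed per animal. CPM is the count scaled by that total. Fits used edgeR 4.0.16 in R 4.3.3 (TMM, filterByExpr, quasi-likelihood), with all groups in 1 fit of 17360 genes. Differences among animals, letters and runs were fitted on libraries with animal, letter and run as fixed terms (21 residual degrees of freedom, 15928 genes). The threshold for a call was an adjusted p (Benjamini-Hochberg, over all genes tested) of 0.05. Deviations used TMM-scaled log2 CPM with a prior count of 2, and exact two-sided permutations within groups covered 13824 arrangements. Scripts were tested on simulated data. DESeq2 1.42.0, limma voom 3.58.1, no low-count filter, a prior count of 0.5, subsets of libraries and leaving out each animal were alternatives.

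The 3 genes, the lists and the rule for other named genes (the single gene with the highest r to each) were chosen with earlier results of these data known. The comparison of letter B with A and C, and rho within subsets of libraries, were added after seeing the data. Cell type markers could not be applied without gene symbols and are not analysed here.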

Additional observations from a re-analysis of the deposited data

How the results depend on the processing

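With each animal left out in turn, the log2 differences at 200 mg/kg ran from 0.70 to 1.03 for ENSMFAG00000039337, 0.66 to 0.95 for ENSMFAG00000002690 and 0.74 to 1.05 for ENSMFAG00000041509. At 50 mg/kg that of ENSMFAG00000039337 ran from -0.052 (without 1501) to 0.275. ENSMFAG00000002690 stood at 0.60 at 200 mg/kg in the second run and at 0.41 against 50 mg/kg in the B libraries. Genes called at 200 mg/kg numbered 14 by DESeq2, 20 by limma voom and 0 to 1 with an animal left out; DESeq2 called 10 at 50 mg/kg, and DESeq2 and voom 1 each between doses. The cause of these shifts was not tested.

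For the run, 10 animals without a letter term gave -0.39, -0.33 and -0.43 for ENSMFAG00000039337, ENSMFAG00000002690 and ENSMFAG00000041509, with 9258 genes called; DESeq2 called 604, and leaving out an animal 207 to 986 (the most without 1504; 440 without 5501). ENSMFAG00000041509 was at 0.053 without the low-count filter, 0.039 without library 5501B and -0.16 to 0.049 with an animal left out. For A minus C, ENSMFAG00000039337 ran from -0.0074 to 0.11, and the count was 1 in the second run and 0 to 1 with an animal left out. For letter B, DESeq2 called 23 genes, 0 were called without library 5501B, and 0 to 1791 with an animal left out (the most without 1504).

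For animals of the same group, leaving out an animal gave edgeR adjusted p from 0.00148 to 0.717, 0.00665 to 0.166 and 0.00985 to 0.0832 for the 3 genes in the same order; the second run gave 0.288, 0.617 and 0.0613. DESeq2 called 6477 genes, the second run 528, and leaving out an animal 1892 to 5663 (the fewest without 1501; 2109 without 1502; the most without 1504).

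The correlation of ENSMFAG00000002690 with ENSMFAG00000041509 ran from 0.760 to 0.905 with an animal left out, and in the second run it was 0.701 (rho 0.758). ENSMFAG00000039337 with ENSMFAG00000041509 had r of 0.0192 in the second run, rho of 0.0182 there and 0.0559 in the B libraries, and r of -0.352 without library 5501B, where its r with ENSMFAG00000002690 was -0.538. Counts of 116 to 482 a library limit ENSMFAG00000002690 most.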
